A study of Mus musculus with 15 samples.

Results

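Rikenellaceae and Prevotellaceae, families of the order Bacteroidales, were followed through experimental colitis in the stool of mice that lacked Gpr15l, the gene of a peptide ligand of the receptor GPR15. Members were set by a rule on taxonomy: every amplicon sequence variant (ASV, a distinct 16S rRNA gene sequence) assigned to either family that had at least 1 count. The families were chosen with earlier results of these data known. This gave 11 of the 507 ASVs with a count, 61835 counts in all or 4.41% of the counts. Rikenellaceae held 6 of them (Alistipes 5, Rikenella 1) and Prevotellaceae 5 (Prevotellaceae_UCG-001 2, Prevotella 1, and 2 without a named genus). ASVs are numbered by their total count over the 15 libraries.

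Amplicons of the V4 stretch of bacterial 16S rRNA genes were sequenced from stool of Gpr15l-deficient littermates given dextran sulfate sodium (DSS), a polysaccharide that damages the colonic epithelium. Recombinant human GPR15L or sterile phosphate-buffered saline (PBS) was given rectally once a day from day 3 through day 9. The 4 groups were the GPR15L arm before DSS (libraries 1, 2 and 3), the PBS arm before DSS (libraries 4, 5 and 6), the GPR15L arm after DSS (libraries 8 to 11) and the PBS arm after DSS (libraries 12 to 15). Before DSS neither arm had received peptide or PBS. Those groups differ in the arm to which the mice were assigned, and they may differ in cage as well. All groups share the knockout genotype, and no wild-type group was analysed here; the sources used here give neither strain nor age. The titles call the mice Gpr15-/- where the series text names Gpr15l, and the labels name male mice only although the design text mentions both sexes. Mice were housed 3 to 4 per cage and no cage is named for a library, so cage and arm cannot be told apart. The labels number the libraries 1 to 15 with no number used at both times, so they do not show whether a mouse was sampled at both, and no library was paired. Each time forms its own run of library names, so library batch and the course of DSS cannot be told apart.

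Rikenellaceae and Prevotellaceae are obligately anaerobic, Gram-negative residents of the mouse large intestine. Alistipes is bile-tolerant and ferments protein as well as carbohydrate. Rikenella is the type genus of its family. Members of Prevotellaceae degrade plant polysaccharides and make short-chain fatty acids, and Prevotellaceae_UCG-001 is a lineage of that family known mainly from sequences. The table gave taxonomy and counts without the sequences of the ASVs, so none is printed.

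Depth differed between libraries. Totals were 62726 to 197433 counts before DSS in the GPR15L arm and 48847 to 162266 in the PBS arm, and 53417 to 144379 and 50041 to 67860 after DSS. At that depth the 95% Wilson interval of a single library's share reached at most 0.215 percentage points on either side for Alistipes, 0.192 for Prevotellaceae_UCG-001 and 0.0303 for Rikenella, which covers counting error only. A group with no count of a taxon allows a mean share of up to 0.000872% to 0.00128% (3 counts over the group's summed total). A fold against a group at 0 sets the observed mean of the other group against that limit, and it leaves out the spread between libraries. Library 6 held 92 ASVs and library 7 held 93, against 127 to 301 in the others. The title of library 7 places it in the PBS arm after DSS, whereas its name belongs to the series of names used before DSS. It was left out of the comparisons, and its values are given separately. Sequences of mitochondria, chloroplasts, Eukaryota or no phylum were rare: before DSS they held 0.0289% ± 0.0272 (SD, n = 3) of GPR15L-arm counts and 0.545% ± 0.713 (SD, n = 3) of PBS-arm counts, and after DSS 0.471% ± 0.198 (SD, n = 4) and 0.310% ± 0.276 (SD, n = 4). Their part in the results was not tested. The labels do not say that libraries of a group came from separate cages or extractions, so p-values measure the spread between these libraries.

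Prevotellaceae_UCG-001 was present in every library and had its highest group means after DSS in both arms. It was carried by ASV12 (33681 counts). Its other variant, ASV481, had 2 counts in library 1. Before DSS the genus made up 2.30%, 0.665% and 1.97% of counts in the GPR15L libraries and 1.44%, 1.33% and 0.308% in the PBS libraries. After DSS it made up 5.51%, 2.46%, 6.43% and 1.63% with GPR15L and 3.72%, 3.42%, 1.89% and 4.82% with PBS. All 4 PBS libraries after DSS lay above all 3 before DSS, whereas in the GPR15L arm library 11 lay below libraries 1 and 3. Library 7 held 0.907%, below every other library titled after DSS.

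The mean share of Prevotellaceae_UCG-001 in the PBS arm was 1.03% ± 0.625 (SD, n = 3) before and 3.46% ± 1.21 (SD, n = 4) after DSS, a ratio of 3.37. The log2 difference of 1.97 ± 0.87 (SE) did not pass edgeR's quasi-likelihood test after Benjamini-Hochberg adjustment over 78 genera (unadjusted p = 0.0388, adjusted p = 0.145). DESeq2 called the genus, with an adjusted p of 0.0494, but not the same counts fitted as ASV12 among the ASVs (log2 1.59, adjusted p = 0.161; edgeR adjusted p = 0.171). In the GPR15L arm the means were 1.65% ± 0.864 (SD, n = 3) and 4.01% ± 2.33 (SD, n = 4), a ratio of 2.44, with an edgeR log2 difference of 0.80 ± 0.83 (SE) and an adjusted p of 0.639. The difference between arms in the course of DSS was -1.17 ± 1.16 (SE) on the log2 scale (edgeR adjusted p = 0.655), so the courses of the arms were not shown to differ.

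The arms were not told apart in Prevotellaceae_UCG-001 at either time. After DSS the groups overlapped, and the fitted log2 difference of GPR15L over PBS was 0.37 ± 0.76 (SE), with an edgeR adjusted p of 0.865. Without library 10, which held the highest share, that value was -0.31. Before DSS the log2 difference was 1.54 ± 0.89 (SE), with an edgeR adjusted p of 0.361. The family Prevotellaceae gave nearly the same values, since the genus held almost all its counts: its log2 difference over DSS was 1.74 ± 0.80 (SE) in the PBS arm (edgeR unadjusted p = 0.0402, adjusted p = 0.191) and 0.85 ± 0.77 (SE) in the GPR15L arm (edgeR adjusted p = 0.468).

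**Figure D1:**
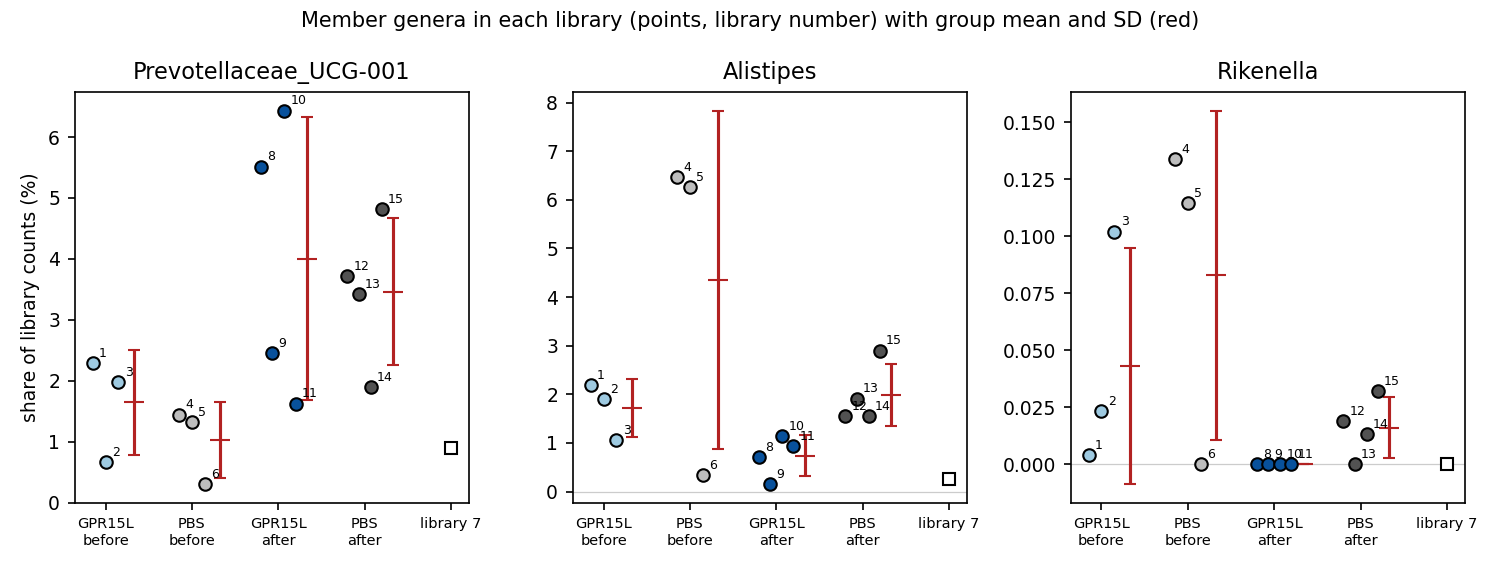
Share of library counts (percent, linear axes that differ between panels) held by Prevotellaceae_UCG-001, Alistipes and Rikenella in the 4 groups, with 1 numbered point per library, group mean and SD in red and library 7 as an open square. The 4 PBS libraries after DSS sit above the 3 before DSS for Prevotellaceae_UCG-001 (1.89% to 4.82% against 0.308% to 1.44%). With library 7 left out, the arms do not overlap after DSS for Alistipes. Rikenella is at 0 in all 4 GPR15L libraries after DSS.

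Alistipes, the most abundant genus of Rikenellaceae, was lower with GPR15L than with PBS in every library of the groups after DSS, library 7 left out. The difference did not pass the test. Before DSS its shares were 2.19%, 1.91% and 1.05% in the GPR15L arm and 6.47%, 6.26% and 0.344% in the PBS arm. Library 6 was thus far below libraries 4 and 5 of its group. After DSS the shares were 0.714%, 0.153%, 1.15% and 0.940% with GPR15L and 1.56%, 1.91%, 1.55% and 2.90% with PBS. These groups did not overlap. Library 7, titled PBS after DSS but left out, held 0.261%, within the GPR15L range after DSS. With it as titled the arms would overlap.

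The mean of Alistipes after DSS was 0.738% ± 0.428 (SD, n = 4) with GPR15L and 1.98% ± 0.635 (SD, n = 4) with PBS, 2.68-fold lower with the peptide. The log2 difference was -1.08 ± 0.85 (SE), with an edgeR adjusted p of 0.435. Before DSS the means were 1.72% ± 0.594 (SD, n = 3) and 4.36% ± 3.48 (SD, n = 3), and the PBS mean was 6.36% without library 6. The arms therefore stood in the same order before any peptide was given, with a log2 difference of -0.76 ± 0.98 (SE) and an edgeR adjusted p of 0.725. Without library 5 that value was 0.11.

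Over DSS the log2 difference of Alistipes was -1.25 ± 0.90 (SE) in the GPR15L arm (edgeR adjusted p = 0.380) and -0.94 ± 0.90 (SE) in the PBS arm (edgeR adjusted p = 0.558). The difference between these courses was -0.32 ± 1.29 (SE), with an edgeR adjusted p of 1.00, and was positive without library 6 or library 9. The family Rikenellaceae followed Alistipes. Its log2 difference between the arms after DSS was -0.87 ± 0.79 (SE), with no overlap and an edgeR adjusted p of 0.534. In the GPR15L arm over DSS it was -1.32 ± 0.84 (SE), again with no overlap and an edgeR adjusted p of 0.280. That gap was narrow, with 1.153% in library 3 before DSS and 1.147% in library 10 after. For Alistipes alone the groups of that comparison overlapped.

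The variants that carried Alistipes differed between libraries and groups. ASV28 (13461 counts), ASV31 (12062 counts) and ASV93 (2151 counts) held nearly all counts of the genus. ASV28 led the genus in 2 of 3 libraries of each arm before DSS, and ASV31 led in all 4 libraries of each arm after DSS. With GPR15L after DSS, ASV28 was at 0 in 3 of 4 libraries.

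ASV28 held 0.297%, 1.28% and 0.676% of counts in the GPR15L libraries before DSS and 4.66%, 5.69% and 0 in the PBS libraries before DSS. After DSS it held 0, 0, 0.0383% and 0 with GPR15L, where library 10 had 24 counts, and 0.535%, 0.508%, 0.479% and 0.565% with PBS. The 4 PBS libraries were close to each other and all above the GPR15L libraries, while library 7, left out, was at 0. The means after DSS were 0.00957% ± 0.0191 (SD, n = 4) and 0.522% ± 0.0370 (SD, n = 4), 54.5-fold lower with GPR15L, and the GPR15L mean was 0 without library 10. The arms stood in the same order before any peptide, with means of 0.750% in the GPR15L arm and 3.45% ± 3.03 (SD, n = 3) in the PBS arm. Those groups overlapped, and their log2 difference was -2.01 ± 2.02 (SE), with an edgeR adjusted p of 0.693. With limma voom its sign turned (1.28).

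The log2 difference of ASV28 between the arms after DSS was -5.19 ± 2.03 (SE) and stayed short of the threshold in edgeR (unadjusted p = 0.0213, adjusted p = 0.0638 over 282 ASVs). It was called by edgeR without library 6 (adjusted p = 0.0227) or without library 10 (adjusted p = 0.0181), and by DESeq2 (adjusted p = 0.0246) and limma voom (adjusted p = 0.0121). The mean of ASV28 in the GPR15L arm went from 0.750% ± 0.494 (SD, n = 3) to 0.00957%, a 78.4-fold difference over DSS (the mean before DSS was 0.487% without library 2), with no overlap and a log2 value of -5.77 ± 2.12 (SE). That too was just short of the threshold in the main fit (edgeR unadjusted p = 0.0153, adjusted p = 0.0514). It was called by edgeR without library 6 (adjusted p = 0.0213) or library 10 (adjusted p = 0.0220), and by DESeq2 (adjusted p = 0.0159) and limma voom (adjusted p = 0.00942) with all libraries. Further edgeR calls came with TMM (adjusted p = 0.0331), total counts (0.0489), no count filter (0.00123) or the 2 groups alone (0.0174). None came with a minimum mean share of 0.1% or library 7 as titled. With PBS the log2 difference over DSS was -2.59 ± 1.86 (SE), with an edgeR adjusted p of 0.384. The courses of the arms differed by -3.18 ± 2.66 (SE) for ASV28, short of the threshold in edgeR (adjusted p = 0.516) and past it in limma voom (adjusted p = 0.0443), where the PBS course of ASV28 turned sign (0.78).

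ASV31 had at least some counts in all 15 libraries. It held 1.74%, 0.517% and 0.298% before DSS in the GPR15L arm and 1.62%, 0.469% and 0.0571% in the PBS arm. After DSS it held 0.529%, 0.0933%, 0.979% and 0.689% with GPR15L and 0.932%, 1.35%, 1.04% and 2.25% with PBS. The groups overlapped in each comparison. Single libraries weighed on the means before DSS. The mean was 0.852% ± 0.777 (SD, n = 3) in the GPR15L arm and 0.407% without library 1, and 0.716% ± 0.811 (SD, n = 3) in the PBS arm and 0.263% without library 4. The log2 difference between the arms after DSS was -0.80 ± 1.02 (SE), with an edgeR adjusted p of 0.669. It was 0.16 without library 4, which is in neither group of that comparison. Without library 4 the value of ASV12 moved the same way, from 0.55 to 1.43, as did that of ASV93, from 2.12 to 3.06. The cause of this shift was not tested.

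ASV93 was also found in all 15 libraries, at lower shares and in another order of groups. It held 0.143%, 0.0946% and 0.0622% before DSS in the GPR15L arm and 0.192%, 0.102% and 0.286% in the PBS arm. After DSS it held 0.185%, 0.0598%, 0.129% and 0.251% with GPR15L and 0.0754%, 0.0200%, 0.0251% and 0.0719% with PBS. All PBS libraries after DSS were below all PBS libraries before DSS.

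The mean of ASV93 in the PBS arm was 0.194% ± 0.0921 (SD, n = 3) before DSS and 0.0481% ± 0.0296 (SD, n = 4) after, 4.03-fold lower. The log2 difference was -2.37 ± 1.19 (SE), with an edgeR adjusted p of 0.185, and DESeq2 called it with an adjusted p of 0.0138. Limma voom did not call it (adjusted p = 0.165), nor did any other of the 22 alternatives. After DSS the log2 difference of GPR15L over PBS was 2.12 ± 1.13 (SE), opposite in sign to that of ASV28, with overlapping groups and an edgeR adjusted p of 0.166. The courses of the arms differed by 3.11 ± 1.69 (SE) for ASV93, with an edgeR adjusted p of 0.256, and DESeq2 called that difference (log2 3.83, adjusted p = 0.0497). Limma voom did not call that difference (adjusted p = 0.226).

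As a share of the Alistipes counts, ASV93 made up 5.81% ± 0.793 (SD, n = 3) before DSS in the GPR15L arm and 25.7% ± 11.4 (SD, n = 4) after. In the PBS arm after DSS it made up 2.50% ± 1.67 (SD, n = 4). ASV31 made up 73.4% ± 9.99 (SD, n = 4) with GPR15L and 68.9% ± 7.41 (SD, n = 4) with PBS after DSS, and ASV28 0.834% ± 1.67 (SD, n = 4) and 27.8% ± 6.40 (SD, n = 4). After DSS, with library 7 left out, the arms did not overlap in the share of Alistipes held by ASV28 or by ASV93, while ASV31 led in both. With library 7 as titled the arms would overlap in both shares. Shares within a genus depend on each other, and as a share of library counts ASV93 overlapped between the arms. These shares were not set beside those of variants in other genera. Library 6 stood apart from its group here: ASV93 made up 83.4% of its Alistipes counts against 2.97% and 1.64% in libraries 4 and 5. In library 7 the value was 88.5%, and ASV28 was at 0 in both libraries.

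**Figure D2:**
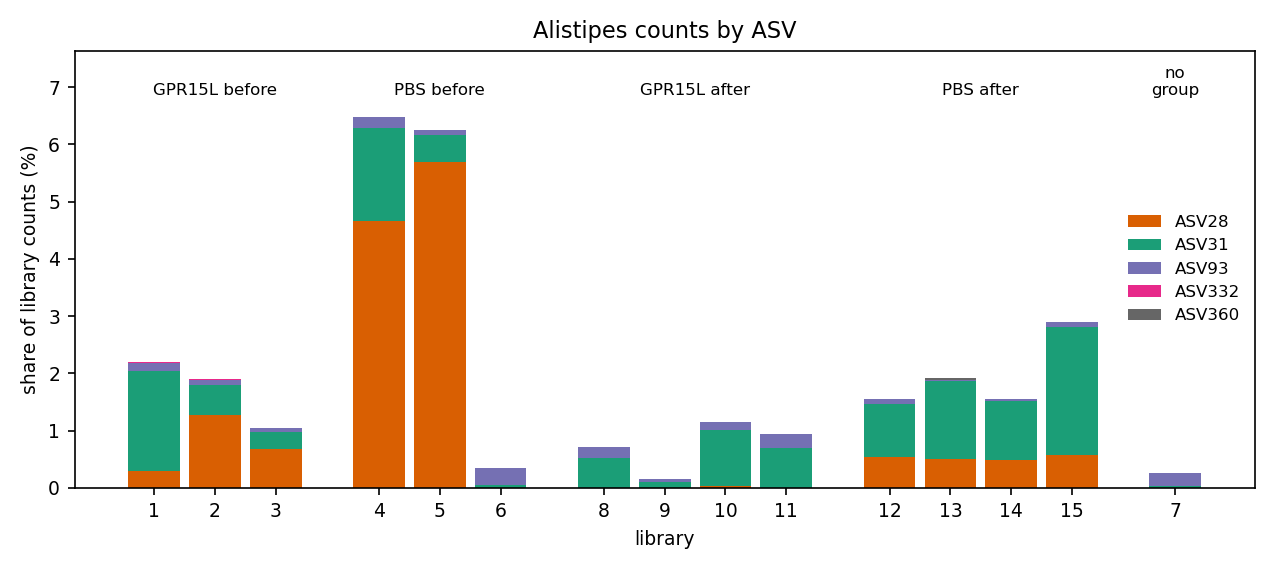
Stacked bars of the share of library counts (percent) held by each Alistipes ASV, 1 bar per library, ordered by group with library 7 apart. ASV28 forms most of the tall bars of libraries 4 and 5 and part of every PBS bar after DSS (0.479% to 0.565%), is nearly missing from the GPR15L bars after DSS, and is at 0 in libraries 6 and 7, where ASV93 leads.

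ASV332, a low-count Alistipes variant (49 counts), was confined to 5 libraries. It had 21, 6 and 9 counts in the GPR15L libraries before DSS, and 8, 0, 0 and 5 counts in the PBS libraries after DSS. It had no count in the PBS arm before DSS, in the GPR15L arm after DSS or in library 7. Its mean in the GPR15L arm was 0.0112% ± 0.00286 (SD, n = 3) before DSS. After DSS the group at 0 allows up to 0.000912%, which is 12.3-fold below the observed mean before DSS (edgeR adjusted p = 0.0499). ASV332 passed the count filter only through the GPR15L libraries before DSS, where it is high, since it had counts in only 2 other libraries. A variant kept in this way had to differ from a group at 0, so its calls are descriptions. Without the count filter the adjusted p was 0.216.

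The call over DSS was close to the threshold and was kept only without library 6 among the 14 libraries left out in turn. In edgeR's interaction test the adjusted p was 0.0385, with the variant at 0 before DSS and present in 2 libraries after DSS in the PBS arm. This call was lost without any of libraries 1, 3, 4, 5, 6, 8 or 12, and DESeq2 gave an adjusted p of 0.0915 and the fit without the count filter 0.160. Before DSS the observed GPR15L mean of ASV332 lay 12.9-fold above the limit of the PBS group at 0, with no overlap and an edgeR adjusted p of 0.264. After DSS the limit of the GPR15L group at 0 lay 6.32-fold below the observed PBS mean (edgeR adjusted p = 0.0721). The PBS mean after DSS was 0.00576% ± 0.00726 (SD, n = 4), and 0.00266% without library 12.

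Rikenella, represented by ASV188 (400 counts), was the genus of these families that passed the test, and only over DSS in the GPR15L arm. It had 8, 16 and 64 counts in the GPR15L libraries before DSS and none in the 4 after DSS. In the PBS arm it had 217, 56 and 0 counts before DSS and 10, 0, 9 and 20 after. As shares, these were 0.00405%, 0.0233% and 0.102%, then 0 in each library, with GPR15L, and 0.134%, 0.115% and 0, then 0.0188%, 0, 0.0133% and 0.0319%, with PBS. Library 7 had no count.

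In the GPR15L arm Rikenella went from a mean of 0.0431% ± 0.0519 (SD, n = 3) to a group at 0 over DSS (edgeR unadjusted p = 0.00405, adjusted p = 0.0395 over 78 genera). The observed mean lay 47.3-fold above the limit of that group at 0. The mean before DSS was 0.0137% without library 3. The call was kept without library 4, 6 or 13 and lost without any of the other 11 libraries, with adjusted p up to 0.110. It was also lost when libraries were scaled by total counts (adjusted p = 0.0549) and with library 7 as titled (adjusted p = 0.0865), and kept with DESeq2 (adjusted p = 0.00198) and limma voom (adjusted p = 0.0352). The same counts, tested among the variants as ASV188, passed as well (edgeR adjusted p = 0.0454), which adds no separate evidence. That call was lost in 13 of 21 alternatives, 11 of them with a library left out.

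Between the arms after DSS, the limit of Rikenella at 0 with GPR15L lay 17.6-fold below the observed PBS mean of 0.0160% ± 0.0132 (SD, n = 4). The difference was short of the threshold (edgeR unadjusted p = 0.0150, adjusted p = 0.0687), and the groups overlapped because library 13 was also at 0. It was called without library 6 (adjusted p = 0.0262) and by DESeq2 (adjusted p = 0.0265). In the PBS arm the mean was 0.0828% ± 0.0723 (SD, n = 3) before DSS, and the log2 difference over DSS was -2.21 ± 1.89 (SE), with an edgeR adjusted p of 0.493. The courses of the arms differed at an unadjusted p of 0.0344 in edgeR, but not after adjustment (adjusted p = 0.212). Before DSS the fitted log2 difference of GPR15L over PBS was 0.29 ± 2.00 (SE), opposite in sign to the mean shares and to the fit scaled by total counts (-0.94), with an edgeR adjusted p of 1.00. The same counts fitted among the ASVs, as ASV188, gave -0.61.

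Rikenella and ASV28 of Alistipes were missing from nearly the same libraries. Both had counts in 8 of 15 libraries and both were at 0 in 5, which were libraries 6, 7, 8, 9 and 11. ASV28 alone was present in libraries 10 and 13, and Rikenella alone in none. This is a description of 15 libraries that share their groups.

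The remaining members were too rare to test. ASV360 (Alistipes) had 6 counts in library 2 and 17 in library 13. ASV482 and ASV490, Prevotellaceae without a named genus, had 2 counts each, in libraries 4 and 12. ASV483 (Prevotella) had 2 counts in library 1, as had ASV481. At an equal depth of 48847 counts, the expected number of member ASVs per library was 6.59 ± 0.522 (SD, n = 3) in the GPR15L arm and 4.50 ± 1.33 (SD, n = 3) in the PBS arm, both before DSS. After DSS it was 3.25 ± 0.500 (SD, n = 4) and 5.75 ± 0.955 (SD, n = 4), so the GPR15L libraries after DSS held 3 or 4 member variants, as did libraries 6 and 7 with 3 each.

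The ratio of Alistipes to Prevotellaceae_UCG-001 counts had a lower median after than before DSS in both arms, and it does not depend on how libraries are scaled. Alistipes counts per Prevotellaceae_UCG-001 count were 0.954, 2.86 and 0.532 in the GPR15L arm and 4.48, 4.72 and 1.12 in the PBS arm before DSS. After DSS they were 0.130, 0.0623, 0.178 and 0.578 with GPR15L and 0.419, 0.559, 0.817 and 0.601 with PBS. The ratio was below 1 in all 8 libraries after DSS and above 1 in 4 of 6 before. Library 11 had the highest ratio of the GPR15L arm after DSS and lay within the PBS range. The median ratio was 0.154 with GPR15L and 0.580 with PBS after DSS, and 0.954 and 4.48 before.

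**Figure D3:**
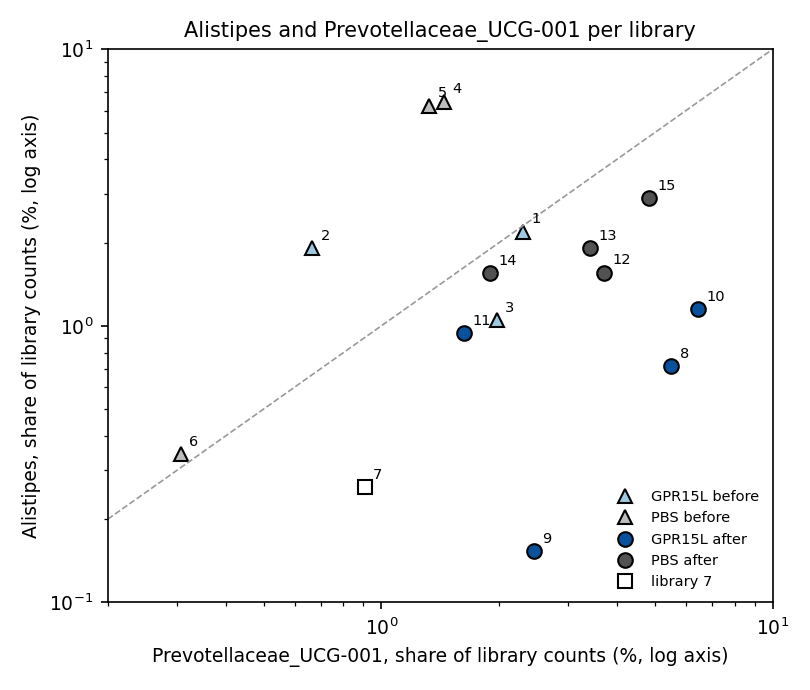
Alistipes against Prevotellaceae_UCG-001 as shares of each library's counts (percent, both axes logarithmic), with 1 numbered point per library, triangles before DSS, circles after DSS, colour for the arm, an open square for library 7 and a dashed line where the shares are equal. All 8 libraries after DSS lie on the side where Prevotellaceae_UCG-001 is the more abundant, and library 6 lies far from libraries 4 and 5.

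The sum of both families overlapped between the groups. It was 3.40% ± 0.980 (SD, n = 3) and 5.47% ± 4.17 (SD, n = 3) before DSS in the GPR15L and PBS arms, and 4.75% ± 2.55 (SD, n = 4) and 5.46% ± 1.76 (SD, n = 4) after. Without library 6 the PBS mean before DSS was 7.87%. The means of the parts stood in opposite order between the arms. The order Bacteroidales, to which both families belong, made up 68.7% ± 10.8 (SD, n = 3) and 36.7% ± 15.9 (SD, n = 3) before DSS, and 56.5% ± 19.7 (SD, n = 4) and 47.9% ± 19.3 (SD, n = 4) after. Within Bacteroidales, Prevotellaceae_UCG-001 held 2.30% ± 1.01 (SD, n = 3) and 2.58% ± 0.877 (SD, n = 3) of counts before DSS and 7.34% ± 3.37 (SD, n = 4) and 7.69% ± 1.89 (SD, n = 4) after, in the GPR15L and PBS arms. The arms thus had like means within the order at each time. Alistipes held 1.19% ± 0.460 (SD, n = 4) of Bacteroidales counts with GPR15L after DSS, at most 1.52%, and 4.81% ± 2.44 (SD, n = 4) with PBS, at least 2.65%. In library 7, left out, it held 0.419%, and with that library as titled the arms would overlap. Before DSS and any peptide, the means of Alistipes within Bacteroidales ranked the arms alike, at 2.58% ± 1.07 (SD, n = 3) in the GPR15L arm and 9.94% ± 7.11 (SD, n = 3) in the PBS arm.

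The counts of calls are given beside those over all features, since few members could be tested: 6 of 11 ASVs (61804 of 61835 member counts), 3 genera and both families passed the count filter. Between the arms after DSS, edgeR called 0 of 6 member ASVs, 0 of 3 genera and 0 of 2 families, against 28% of all ASVs, 14.1% of genera and 21.1% of families. At an unadjusted p under 0.05 these were 3, 1 and 0 members; DESeq2 called 2, 1 and 0, and limma voom 1, 0 and 0. The groups did not overlap in 1 member at each level (ASV28, Alistipes and Rikenellaceae), against 30.9% of ASVs, 21.8% of genera and 26.3% of families. The median log2 difference of the 6 member ASVs was -1.73 with groups at 0 set to their bound, and 0.00 over all 282 ASVs. In the median over all ASVs, here and in the comparisons below, an ASV at 0 in both groups entered as 0. No tested member was at 0 in both groups, so these medians are not like measures and no contrast is drawn from them.

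Before DSS no member was called at any level by edgeR, DESeq2 or limma voom, and 1 ASV was under an unadjusted p of 0.05 in edgeR. Over all features edgeR called 1.77% of ASVs, 0 of 78 genera and 0 of 38 families. Only ASV332 showed no overlap, against 10.3% of ASVs, 10.3% of genera and 10.5% of families. The member median was 0.15, and that over all ASVs with bounds, ASVs at 0 in both groups included, was -0.32.

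In the PBS arm edgeR called no member over DSS, against 4.26% of ASVs, 5.13% of genera and 5.26% of families. There was 1 member at each level under an unadjusted p of 0.05, DESeq2 called 1 ASV and 1 genus, and limma voom called none. The groups did not overlap in 2 ASVs (ASV12 and ASV93), 1 genus and 1 family, against 17.7%, 19.2% and 21.1% of all. The member median was -0.55, and that over all ASVs with bounds, ASVs at 0 in both groups included, was 0.00.

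Over DSS in the GPR15L arm edgeR called 2 of 6 member ASVs (ASV188, and ASV332 with the limit of the filter given above) and 1 of 3 genera (Rikenella), all lower. The 2 of 6 lay near the background, in which 28.4% of all ASVs and 10.3% of genera were called, 19.5% of ASVs and 7.69% of genera lower. Neither family was called in that comparison, against 2.63% of all families. The groups did not overlap in 3 ASVs (ASV28, ASV188 and ASV332), 1 genus and 1 family, against 29.4%, 23.1% and 26.3% of all. The member median was -2.07, and that over all ASVs with bounds, ASVs at 0 in both groups included, was 0.00. For the difference of the courses, edgeR called ASV332 alone, lower, against 9.93% of ASVs in either direction and 6.38% lower; DESeq2 called ASV93 instead, in the higher direction, and limma voom called ASV332 and ASV28, both lower. It called none of the member genera or families, where 3.85% of genera and 5.26% of families were called, 1 genus was under an unadjusted p of 0.05, and DESeq2 and limma voom called none.

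**Figure D4:**
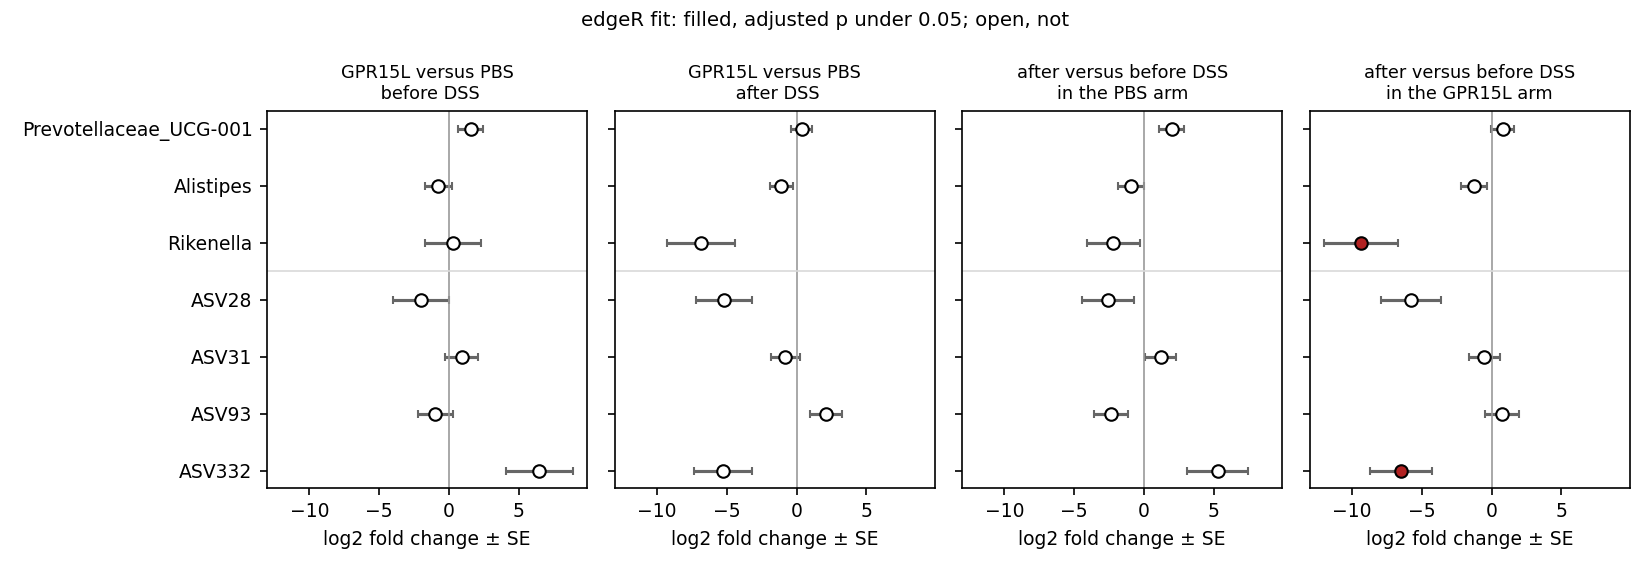
Log2 fold changes fitted by edgeR (points) with SE (bars) for the 3 tested genera and 4 Alistipes ASVs in the 4 comparisons of 2 groups, filled where the adjusted p was under 0.05. Rikenella and ASV332 are filled over DSS in the GPR15L arm. A group at 0 makes the fitted size depend on the prior count. The observed means before DSS lay 47.3-fold and 12.3-fold above the limit of the group at 0.

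The other Bacteroidales gave a reference among relatives (90 ASVs, 55 tested). Over DSS in the GPR15L arm 24 of these 55 fell and 3 rose, and 22 of the 24 belonged to Muribaculaceae, the dominant Bacteroidales family of the mouse gut. Over DSS with PBS 4 fell and 2 rose. Between the arms after DSS 10 were lower with GPR15L and 4 were higher, and before DSS 4 were higher and none lower. None of the other Bacteroidales families passed edgeR's test at the family level in any of these comparisons. The lower variants of Rikenellaceae over DSS in the GPR15L arm therefore stood among many lower variants of the order, and no test set them apart from these.

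Among the 36 other genera or lowest named ranks with a mean share of at least 0.1%, the pattern over 14 libraries nearest to that of Prevotellaceae_UCG-001 was that of Bacteroides, another Bacteroidales genus. The mean absolute difference of their centred log2(percent + 0.01) was 0.83, against a median of 1.54 over the 36. Tannerellaceae without a named genus (0.85) and Lactobacillaceae without a named genus (0.85) followed. For Alistipes the nearest were Lactobacillaceae without a named genus (0.88), Parabacteroides (0.98) and Oscillibacter (1.16), against a median of 1.53. Alistipes and Prevotellaceae_UCG-001 differed by 1.31, which placed Alistipes at rank 14 for Prevotellaceae_UCG-001. The libraries share their groups and depths, so these distances are descriptions.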

How the data were processed

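Stool DNA was amplified over the V4 region of 16S rRNA genes and run on a MiSeq, as described per the labels' protocols. The authors deposited a table of read counts, whole numbers for each ASV and library beside a taxonomy string. The table's name points to DADA2; the sources used here do not give its version, read filters or taxonomy reference. The submitters' processing notes list R 4.5.1 and limma without their role. Short amplicons may merge strains, and gene copy number and primers affect shares, so a share is no number of cells. Fewer cells of a taxon and more of the rest cannot be told apart. No column was left unmapped.

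Of 3697 ASVs, 3190 were at 0 in all libraries. The rule matched 161 ASVs, 11 of them with a count. Counts were summed per genus (or lowest named rank, 109) and per family (54). Features with at least 10 counts in all and a count in at least 3 of 14 libraries were tested (282 ASVs, 78 genera and 38 families). edgeR 4.0.16 (R 4.3.3) used TMMwsp scaling, 1 mean per group, its quasi-likelihood fit, and Benjamini-Hochberg adjustment at 0.05 over all features of a level. SE is the absolute log2 value over the square root of F; with a group at 0 it bounds nothing. The script was tested on simulated data. Libraries of a group differed by more than counting noise (lowest chi-square per degree of freedom 35.2), so none was counted as a duplicate. Libraries held 48847 to 197433 counts.

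Named were all member families and genera, the 10 member ASVs with the most counts and any that were called, relatives by family, and the 3 genera most alike. The eleventh member ASV is named to account for all. Members and lists were chosen with earlier results of these data known. The alternatives were TMM; total counts as sole scaling; DESeq2 1.42.0 with poscounts; voom of limma 3.58.1; the tests without a count filter; a minimum mean share of 0.1%; 2 groups alone; library 7 as titled; and each library left out.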

Additional observations from a re-analysis of the deposited data

Results flagged for a closer look

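In 4 of 22 groups examined, a single library stood outside the others of its group. In each of them the other libraries were at 0, so that any count stood outside, and the usual chance rate of the gap test does not apply. ASV28 of Alistipes held 0.0383% in library 10 and 0 in the other GPR15L libraries after DSS. ASV360 of Alistipes held 0.0340% in library 13 and 0 in the other PBS libraries after DSS. Prevotellaceae without a named genus held 0.00377% in library 12 and 0 in the other PBS libraries after DSS, and this is the single ASV490 with 2 counts (also 0.00377%), so the same counts appear in both.

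For ASV332 of Alistipes the difference between the arms in the course of DSS was -11.72 on the fitted log2 scale (edgeR interaction term, adjusted p = 0.0385). It passed the count filter only through the GPR15L libraries before DSS, where it is high, so the call is a description. The groups at 0 make that size depend on the prior count. Its 49 counts lay in 3 of 3 GPR15L libraries before DSS and 2 of 4 PBS libraries after DSS. Without library 1, 3, 4, 5, 6, 8 or 12 the difference was not called.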

How the results depend on the processing

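No paired analysis was possible because replicate numbers run from 1 to 15 and no 2 groups share one. Over 55 log2 results and 1179 alternatives, 1075 kept direction and side of the threshold, 52 lost the call, 28 gained it and 24 changed sign. The number of member ASVs called between the arms after DSS, 0 in edgeR, was 2 with TMM, 1 with total counts, 2 with DESeq2, 1 with limma voom, 1 without the count filter, 3 with 2 groups fitted alone, and 0 to 2 with a library left out; genera were 1 with DESeq2, 1 with 2 groups alone and 0 to 1 with a library left out. In the PBS arm over DSS DESeq2 called 1 ASV and 1 genus. Over DSS in the GPR15L arm the number of ASVs called, 2 (ASV188 and ASV332), was 1 without the count filter, where both were lost (adjusted p = 0.0689 and 0.216) and ASV28 was called (0.00123). It was 2 with total counts, with ASV28 (0.0489) in place of ASV332 (0.0526). It was 3 with limma voom, and TMM and the 2 groups alone also added ASV28 (edgeR adjusted p = 0.0331 and 0.0174). With DESeq2 it was 2, ASV28 (adjusted p = 0.0159) and ASV188 (adjusted p = 0.00250), with no adjusted p for ASV332. It was 0 with a mean share of 0.1%, where the low-count variants were not tested, 0 with library 7 as titled, and 0 to 3 with a library left out; the 1 genus became 0 with total counts, with a mean share of 0.1% or with library 7 as titled, and 0 to 1 with a library left out. The number of ASVs called in the interaction, 1 (ASV332), was 2 with limma voom (ASV332 and ASV28), 1 with DESeq2 (ASV93 in place of ASV332), 0 without the count filter, with a mean share of 0.1% or with library 7 as titled, and 0 to 1 with a library left out. Signs turned for ASV12 after DSS with TMM (-0.024), ASV28 before DSS (1.28) and over DSS in the PBS arm (0.78), ASV188 (0.12) and Alistipes (0.10) before DSS with limma voom, Rikenella before DSS with total counts (-0.94), and the interaction of Rikenellaceae with DESeq2 (0.11) and library 7 as titled (0.085). With a library left out, log2 values between the arms after DSS ran from -0.080 to 1.43 for ASV12, from -0.31 to 0.66 for Prevotellaceae_UCG-001 and from -1.37 to 0.16 for ASV31; before DSS from -0.55 to 1.67 for ASV31, from -2.40 to 0.080 for ASV188, from -1.30 to 0.11 for Alistipes and from -2.48 to 1.12 for Rikenella; over DSS in the GPR15L arm from -1.12 to 0.92 for ASV31; and for the interaction from -1.25 to 0.77 for ASV12, from -1.19 to 0.22 for Alistipes and from -0.78 to 0.32 for Rikenellaceae. The cause was not tested. Scaling moved the median over all genera from -0.54 to -1.13 before DSS (total counts) and from -0.56 to -0.99 over DSS in the PBS arm (TMM). Depth limits ASV332, Rikenella and the variants with under 50 counts.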
